A study of Rattus norvegicus with 18 samples.

Results

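The transcripts described here are those of 10 immediate early genes. Fos, Fosb, Fosl1, Fosl2, Jun, Junb, Jund, Egr1 and Myc belong to the AP-1, EGR and MYC families, and Klf6 is a Krüppel-like factor gene. The rows of all 10 genes were selected by symbol, and each gene matched 1 row of a table of 19880 protein-coding genes. The list itself was chosen with earlier results of these data known. The RNA came from neonatal rat ventricular cardiomyocytes, primary heart muscle cells taken from Sprague-Dawley rats on postnatal day 2. Cells were enzymatically dissociated and plated for 1 h so that attached non-cardiomyocytes could be discarded. All 6 groups, controls included, received phenylephrine at 20 µM for 24 h and a virus. The groups were cells given adenoviral constructs named ad-sORF6, ad-sORF7 or ad-sORF8 (a short open reading frame each) and cells given the control virus of each construct, with 3 libraries per group and 18 in all. The sequence of each reading frame and the gene carried by the control virus are not in the labels, and they do not state that the libraries within a group are separate cultures. A p-value here reflects only the spread among these libraries, and that spread may be technical. No library without phenylephrine was analysed here, so the effect of phenylephrine itself was not measured.

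Immediate early genes are transcribed within minutes of a stimulus from factors already present in the cell, and their transcripts usually decline again soon after. Phenylephrine acts on alpha-1 adrenergic receptors, whose signal runs through Gq and the ERK kinases to serum response factor and its ETS partners such as ELK1, which bind CArG boxes before many of these genes. FOS and JUN family proteins pair to form AP-1, EGR1 is a zinc finger factor of GC-rich sites, MYC binds E-boxes together with MAX, and KLF6 is a Krüppel-like zinc finger factor. Fos, Jun, Egr1 and Myc are classic genes of the first response of cardiomyocytes to hypertrophic agonists.

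Total estimated counts ran from 15697177 to 17658137 per library. All 10 cardiomyocyte markers examined were detected, and Actc1, which encodes cardiac alpha actin, had the highest level of any gene in all 18 libraries. Replicate 2 of the sORF6 controls and replicate 1 of the sORF7 controls stood apart from the rest of their groups. Their counts differed from group mates by a chi-square per degree of freedom of 6.51 to 11.4, against 2.75 to 4.13 for all other pairs. The 6 libraries of the sORF8 experiment lay at one end of the first principal component, which held 32.1% of the variance. Normalised CPM are counts scaled to library size with TMM factors (CPM), and FPKM further divides by transcript length. Because these are bulk samples, fewer cells of a type and less RNA per cell cannot be told apart.

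Promoter sequences are shown for Junb, Fosl1 and Klf6, 3 of the genes whose transcripts changed in at least 1 comparison with a control virus. They are the 250 bases before the annotated start in RefSeq (build GRCr8), 5′ to 3′ on the strand of the gene. RefSeq windows were matched for 7 of the 10 genes (not Fos, Jun or Myc). Capitals mark matches, on either strand, to TGANTCA and TGACGTCA (AP-1 and CRE sites), GCGGGGGCG (EGR), CACGTG (E-box), the CArG box, TATAAA and CCAAT. The Junb window lies at chr19:40080876-40081125 on the plus strand, that of Fosl1 at chr1:212183635-212183884 on the plus strand, and that of Klf6 at chr17:69458479-69458728 on the minus strand of that build.
Junb: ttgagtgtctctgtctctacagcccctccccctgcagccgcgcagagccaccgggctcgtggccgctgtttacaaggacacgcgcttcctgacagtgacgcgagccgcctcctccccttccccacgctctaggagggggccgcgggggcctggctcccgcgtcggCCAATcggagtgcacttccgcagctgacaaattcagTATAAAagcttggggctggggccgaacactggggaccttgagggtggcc
Fosl1: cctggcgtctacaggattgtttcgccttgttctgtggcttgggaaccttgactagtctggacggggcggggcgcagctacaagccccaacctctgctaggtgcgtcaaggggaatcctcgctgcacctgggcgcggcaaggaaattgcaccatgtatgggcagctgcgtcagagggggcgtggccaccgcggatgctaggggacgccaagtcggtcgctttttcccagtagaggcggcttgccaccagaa
Klf6: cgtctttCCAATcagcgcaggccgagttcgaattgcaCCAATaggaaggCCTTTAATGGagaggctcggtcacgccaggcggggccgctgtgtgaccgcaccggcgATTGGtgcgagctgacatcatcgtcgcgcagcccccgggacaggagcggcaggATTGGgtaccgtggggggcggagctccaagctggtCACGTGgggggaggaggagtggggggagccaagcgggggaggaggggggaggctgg
In the Junb window, TATAAA stood 49 to 44 bases before the start and CCAAT 85 to 81 bases before it. The Klf6 window held CACGTG at 56 to 51 bases, a CArG box at 201 to 192 bases and 4 CCAAT matches, 2 of them on the opposite strand. None of these motifs matched in the Fosl1 window, which held 1 copy of the GC box GGGCGG. Among the windows not printed, Egr1 held 2 CArG boxes, at 105 to 96 and 83 to 74 bases before its start, and CCAAT at 228 to 224 bases. Jund held TGACGTCA at 221 to 214 bases and CCAAT at 86 to 82 bases. Fosl2 held GCGGGGGCG at 249 to 241 bases and Fosb held TATAAA at 180 to 175 bases. Of 33469 rat promoter windows of the same length, 6.34% held TGANTCA, 1.59% TGACGTCA, 2.45% GCGGGGGCG and 5.59% CACGTG. The CArG box was in 1.497% of them, TATAAA in 12.9%, CCAAT in 34.0% and GGGCGG in 30.5%. G and C made up 62.0% of the Fosl1 window, 66.0% of Junb and 67.2% of Klf6, against a median of 51.2% over all windows. A match is a description of the letters and was not tested as a binding site.

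Compared per length over all 18 libraries, the 10 genes spanned a wide range of FPKM levels. Jund was the highest, with a mean of 87.0 FPKM (70.3 to 109), a level exceeded by 4.76% of the genes in the table. Jun followed at 39.8 FPKM (33.6 to 47.6), Egr1 at 32.6 (22.1 to 39.3), Klf6 at 29.0 (24.5 to 38.4), Junb at 27.8 (19.4 to 33.6) and Myc at 22.1 (14.9 to 34.2). Fos, the founding member of its family, had a mean of 11.5 FPKM (9.25 to 14.2) at this time. Fosl1 stood at 5.76 FPKM (3.52 to 10.2), Fosl2 at 5.35 (4.29 to 7.60) and Fosb at 1.05 (0.66 to 1.64). Jund was above Jun in 18 of 18 libraries, Myc above Fos in 18, Fos above Fosl1 in 18 and Fosl2 above Fosb in 18. The neighbours Egr1 and Klf6 kept their order in 13 of 18 libraries, Klf6 and Junb in 11, and Fosl1 and Fosl2 in 10. The order of these pairs differed between groups. Mean FPKM of Egr1 and Klf6 was 36.2 and 27.5 with sORF6, and 35.7 and 37.7 in the sORF8 controls. Klf6 and Junb stood at 27.5 and 19.8 with sORF6, and at 25.5 and 31.6 with sORF7. Fosl1 and Fosl2 stood at 3.83 and 5.14 with sORF6, and at 9.68 and 5.54 in the sORF8 controls. Effective lengths, worked out here from the authors' counts and FPKM, were shortest for Fosl2 (956 bases) and Egr1 (1518). Those of Fos (1581), Fosl1 (1657), Jund (1674) and Junb (1781) were close to that of Egr1. Myc (2348), Jun (3113), Fosb (3270) and Klf6 (4244) had longer ones. A short length raises an FPKM computed from it, so the order by FPKM depends on these lengths.

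**Figure D1:**
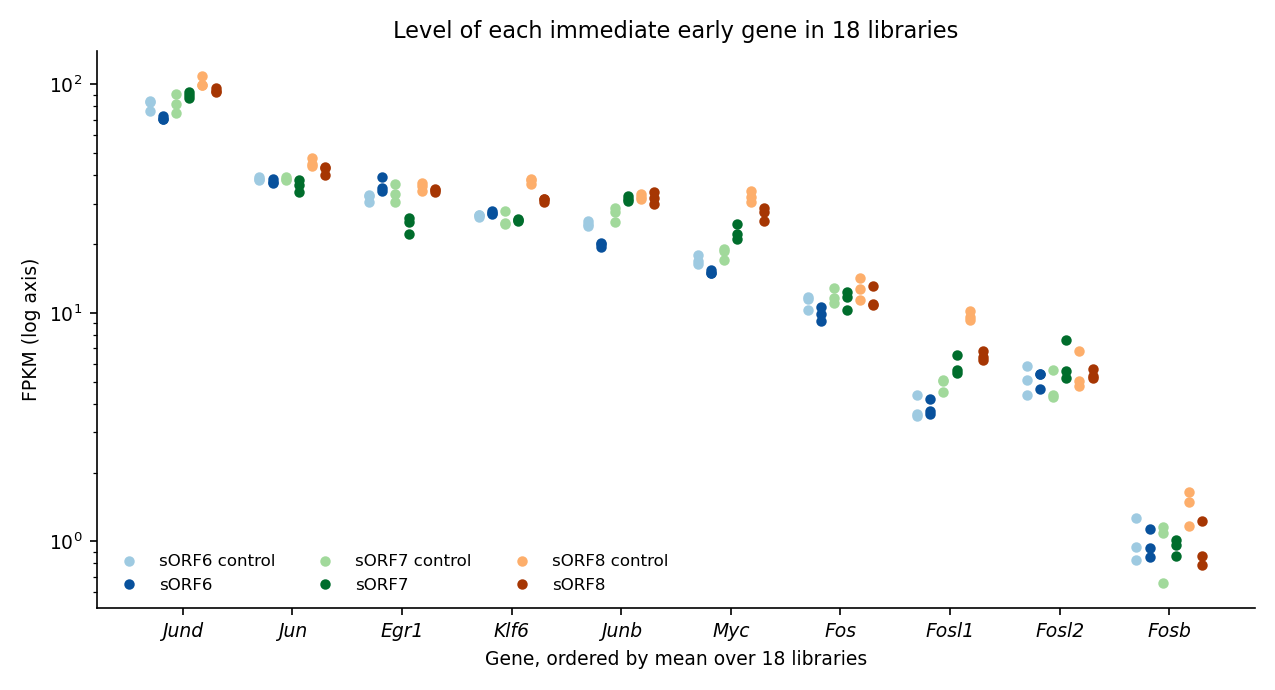
Level of each of the 10 genes in FPKM (log axis) in each of the 18 libraries, ordered by mean and coloured by group; 1 point is 1 library. Jund lies above Jun in every library, and Fosb is the lowest gene throughout. The sORF8 controls have the highest group mean for Jund, Jun, Klf6, Junb, Myc, Fos, Fosl1 and Fosb. For Junb, Fos and Fosb their points overlap those of the sORF8 libraries.

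The AP-1 pool at the RNA level was mostly JUN family. Summing the FPKM of the 7 AP-1 genes in each library, Jund made up 48.8% ± 1.02 (SD, n = 18), Jun 22.5% ± 1.83 and Junb 15.5% ± 1.37. Fos made up 6.46% ± 0.50, Fosl1 3.16% ± 0.80, Fosl2 3.02% ± 0.47 and Fosb 0.59% ± 0.13. The 4 FOS family genes together held 12.4% to 15.1% of the sum, a narrow range over all 6 groups. In single groups, Jun held 25.3% ± 0.42 (n = 3) with sORF6 and 19.8% ± 0.44 with sORF7, while Junb held 13.4% ± 0.35 and 17.4% ± 0.50. These shares describe transcripts and not protein dimers.

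Each sORF construct was compared with its own control virus by edgeR's quasi-likelihood test, with p-values adjusted over the 14870 genes tested by the Benjamini-Hochberg method. All 10 genes passed the filter on low counts. Between 1 and 3 of the 10 changed with each construct. With sORF6, 1 of 10 passed an adjusted p of 0.05 (Junb, lower), where 3.85% of all genes tested did. With sORF7, 3 of 10 passed (Junb and Myc higher, Egr1 lower), against 7.77% of all genes. With sORF8, 3 of 10 passed (Klf6, Fosl1 and Myc, all lower), against 3.75% of all genes (2.03% higher and 1.72% lower). The median log2 fold change of the 10 genes was -0.04 with sORF6, 0.03 with sORF7 and -0.12 with sORF8, beside 0.00084, -0.0024 and 0.00053 for all genes tested. In each comparison 5 of the 10 had sORF and control libraries that did not overlap, as did 20.6% of all genes with sORF6, 23.1% with sORF7 and 24.5% with sORF8. The authors' deposited table gives more of these genes a q-value under 0.05: 5 of 10 for sORF6 (21.9% of all genes with a q-value), 7 for sORF7 (27.4%) and 6 for sORF8 (22.7%).

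**Figure D2:**
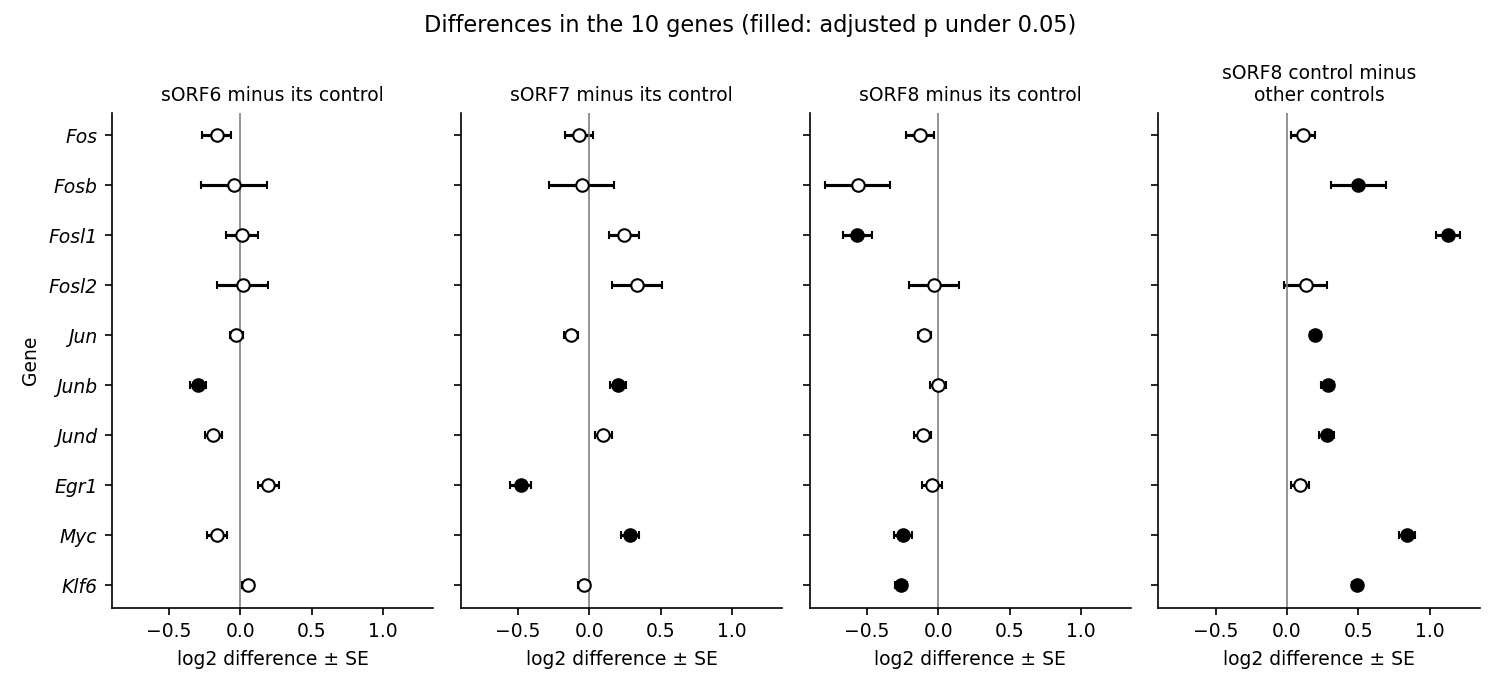
Log2 difference ± SE of each of the 10 genes for each sORF minus its control virus, and for the sORF8 controls minus the mean of the other controls (edgeR, 3 libraries per group). Filled points have an adjusted p under 0.05: 1 gene with sORF6, 3 with sORF7, 3 with sORF8 and 7 between control groups.

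Junb encodes the JUN family member that binds like JUN but activates many AP-1 promoters less strongly. It stood at 36.6, 36.2 and 35.0 normalised CPM in the sORF6 libraries and at 45.4, 43.9 and 43.1 in their controls. All 3 sORF6 libraries were below all 3 controls, and Junb was 1.23-fold lower (log2 fold change -0.30 ± 0.06 SE, adjusted p = 0.00325). With sORF7 the order was the opposite: Junb stood at 57.0, 56.1 and 54.3 normalised CPM, and at 44.4, 49.95 and 51.3 in the controls. The groups again did not overlap, and Junb was 1.149-fold higher (log2 fold change 0.20 ± 0.05 SE, adjusted p = 0.0281). That call was lost without sORF7 replicate 1 (adjusted p = 0.107), sORF7 replicate 2 (0.0808) or sORF7 control replicate 1 (0.116), the control library that stood apart. It was also lost with only the 6 libraries of the experiment (0.115), a replicate block (0.0682) and both control libraries that stood apart left out (0.108). With sORF8, values of 59.4, 56.2 and 53.2 normalised CPM overlapped those of the controls, 54.9, 56.2 and 57.9 (log2 fold change -0.0024 ± 0.05 SE, adjusted p = 0.992). The Junb interval in the table (Rnor_6.0 chromosome 19, 26092568 to 26099148, plus strand) overlaps Prdx2 on the same strand and LOC100909916 on the other. Prdx2, a peroxiredoxin gene, had log2 fold changes of -0.09 ± 0.06 SE with sORF6 (adjusted p = 0.501) and 0.05 ± 0.06 with sORF7 (adjusted p = 0.72), and LOC100909916 had 0 counts in 17 of 18 libraries. The sources used here do not give the strand setting of the counting, so the Junb counts are uncertain to that extent.

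Jund, a JUN family gene described as a restraint on hypertrophic growth, passed the test in none of the 3 comparisons. It stood at 119.8, 120.2 and 123 normalised CPM with sORF6 and at 143, 144 and 129 in the controls, without overlap (log2 fold change -0.19 ± 0.06 SE, adjusted p = 0.0962). Its adjusted p was 0.0414 to 0.270 over the other settings tried, and it passed the threshold without sORF6 control replicate 3 and with DESeq2. In the authors' deposited table Jund has a q-value of 2.96e-14 for this comparison, 2.68e-06 for sORF7 and 3.21e-06 for sORF8. With sORF7 it stood at 149, 155 and 144 normalised CPM against 126, 154 and 139 (log2 fold change 0.10 ± 0.06 SE, adjusted p = 0.394), and the groups overlapped. With sORF8 it stood at 160.1, 154 and 155 against 163, 163 and 179 (log2 fold change -0.11 ± 0.06 SE, adjusted p = 0.382). The gene Iqcn, which overlaps Jund on the opposite strand (Rnor_6.0 chromosome 16, 20485028 to 20491353), had at most 3 counts in any library.

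Jun, whose protein can pair with itself as well as with FOS proteins, passed the test in none of the 3 comparisons. Its levels ran from 104 to 146 normalised CPM over the 18 libraries. Log2 fold changes were -0.03 ± 0.05 SE with sORF6 (adjusted p = 0.839), -0.13 ± 0.05 with sORF7 (adjusted p = 0.106) and -0.10 ± 0.05 with sORF8 (adjusted p = 0.301). With sORF7 the libraries at 111, 118 and 104 normalised CPM lay below the controls at 119, 124 and 121. That difference passed the threshold when sORF7 replicate 2 was left out (adjusted p = 0.039) and in no other setting tried.

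Fos, whose protein needs a JUN partner to bind DNA, did not pass the test with any construct. Its levels ran from 14.8 to 22.1 normalised CPM over all libraries, and sORF and control libraries overlapped in all 3 experiments. Log2 fold changes were -0.17 ± 0.10 SE with sORF6 (adjusted p = 0.458), -0.07 ± 0.10 with sORF7 (0.751) and -0.13 ± 0.10 with sORF8 (0.569). Fosb ran from 2.18 to 5.27 normalised CPM on 38 to 85 counts per library, and Fosl2 from 4.13 to 7.24 on 72 to 128 counts. At these counts their standard errors were 0.18 to 0.23 on the log2 scale, against 0.04 to 0.07 for Jun, Junb, Jund, Egr1, Myc and Klf6. The Fosb difference with sORF8 was -0.56 ± 0.23 SE (adjusted p = 0.202), a size that was not distinguishable from 0 at this depth by the edgeR test. The authors' deposited table gives Fosb a q-value of 0.00107 for this comparison.

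Fosl1 encodes FRA1, a FOS family member without the strong activation domain of FOS and itself a transcriptional target of AP-1. With sORF8 it stood at 10.2, 11.2 and 10.6 normalised CPM, and at 15.2, 16.6 and 15.6 in the controls. No sORF8 library reached the lowest control, and Fosl1 was 1.48-fold lower (log2 fold change -0.57 ± 0.10 SE, adjusted p = 0.0028). With sORF7 it stood at 10.8, 8.999 and 9.18 normalised CPM against 8.47, 7.58 and 8.36, which did not overlap and did not pass the test (log2 fold change 0.25 ± 0.10 SE, adjusted p = 0.19). With sORF6, values of 6.05, 6.25 and 7.04 overlapped the controls at 7.30, 6.03 and 5.87 (log2 fold change 0.01 ± 0.11 SE, adjusted p = 0.98). Its interval (Rnor_6.0 chromosome 1, 220826560 to 220835066, plus strand) overlaps that of Ccdc85b on the same strand. The log2 fold change of Ccdc85b with sORF8 was -0.10 ± 0.12 SE (adjusted p = 0.748).

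Egr1 moved most with sORF7. It stood at 33.2, 37.6 and 39.3 normalised CPM in the sORF7 libraries, and at 50.5, 56.3 and 46.8 in the controls. All 3 sORF7 libraries were below every other library of the study, and Egr1 was 1.39-fold lower than in its controls (log2 fold change -0.48 ± 0.07 SE, adjusted p = 0.000321). With sORF6 it stood at 60.8, 54.7 and 52.3 normalised CPM against 49.7, 50.2 and 46.5; the groups did not overlap, and the log2 fold change of 0.20 ± 0.07 SE had an adjusted p of 0.164. With sORF8 the values of 52.4, 51.6 and 50.9 overlapped the controls at 50.9, 55.3 and 53.6 (log2 fold change -0.04 ± 0.07 SE, adjusted p = 0.821). The gene lies at 27657903 to 27660101 on rat chromosome 18 (Rnor_6.0, plus strand), with no overlapping gene in the table.

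Myc was higher with sORF7 and lower with sORF8. With sORF7 it stood at 57.0, 51.6 and 48.7 normalised CPM against 40.02, 45.3 and 43.8 in the controls, without overlap. This was a 1.22-fold rise (log2 fold change 0.28 ± 0.07 SE, adjusted p = 0.0107), which did not pass without sORF7 replicate 1 (adjusted p = 0.0762) or sORF7 control replicate 1 (0.0516). With sORF8 it stood at 58.5, 66.6 and 64.1 normalised CPM against 70.8, 79.0 and 74.6, also without overlap. Here Myc was 1.19-fold lower (log2 fold change -0.25 ± 0.06 SE, adjusted p = 0.035). This call was lost without sORF8 replicate 1 (adjusted p = 0.179), sORF8 replicate 3 (0.0751), sORF8 control replicate 2 (0.16) or sORF8 control replicate 3 (0.101). It was also lost with limma on log2(FPKM + 1) (0.0528), limma on log2(FPKM + 0.1) (0.0664) and a replicate block (0.0553). With sORF6, Myc stood at 35.7, 36.9 and 35.6 normalised CPM against 39.0, 40.2 and 42.1, without overlap (log2 fold change -0.16 ± 0.07 SE, adjusted p = 0.236). The gene lies at 102586313 to 102591240 on rat chromosome 7 (Rnor_6.0, plus strand).

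Klf6 was the member with the tightest replicates, with a pooled within-group coefficient of variation of 3.25% in normalised CPM. With sORF8 it stood at 132, 133 and 129 normalised CPM, and at 159, 160.1 and 153 in the controls. The groups were well apart, and Klf6 was 1.1997-fold lower (log2 fold change -0.26 ± 0.04 SE, adjusted p = 0.000967). With sORF6 it stood at 117, 119 and 119.8 normalised CPM against 115, 116 and 112 (log2 fold change 0.06 ± 0.04 SE, adjusted p = 0.59). With sORF7, values of 108, 108 and 106 overlapped the controls at 119, 106 and 106 (log2 fold change -0.04 ± 0.04 SE, adjusted p = 0.671). The highest of these controls is replicate 1, which stood apart, and without it the log2 fold change was 0.03. The authors' table places the gene at 67861763 to 67945052 on rat chromosome 17 (Rnor_6.0, plus strand), whereas GRCr8 has it on the minus strand, and the window printed above follows GRCr8.

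**Figure D3:**
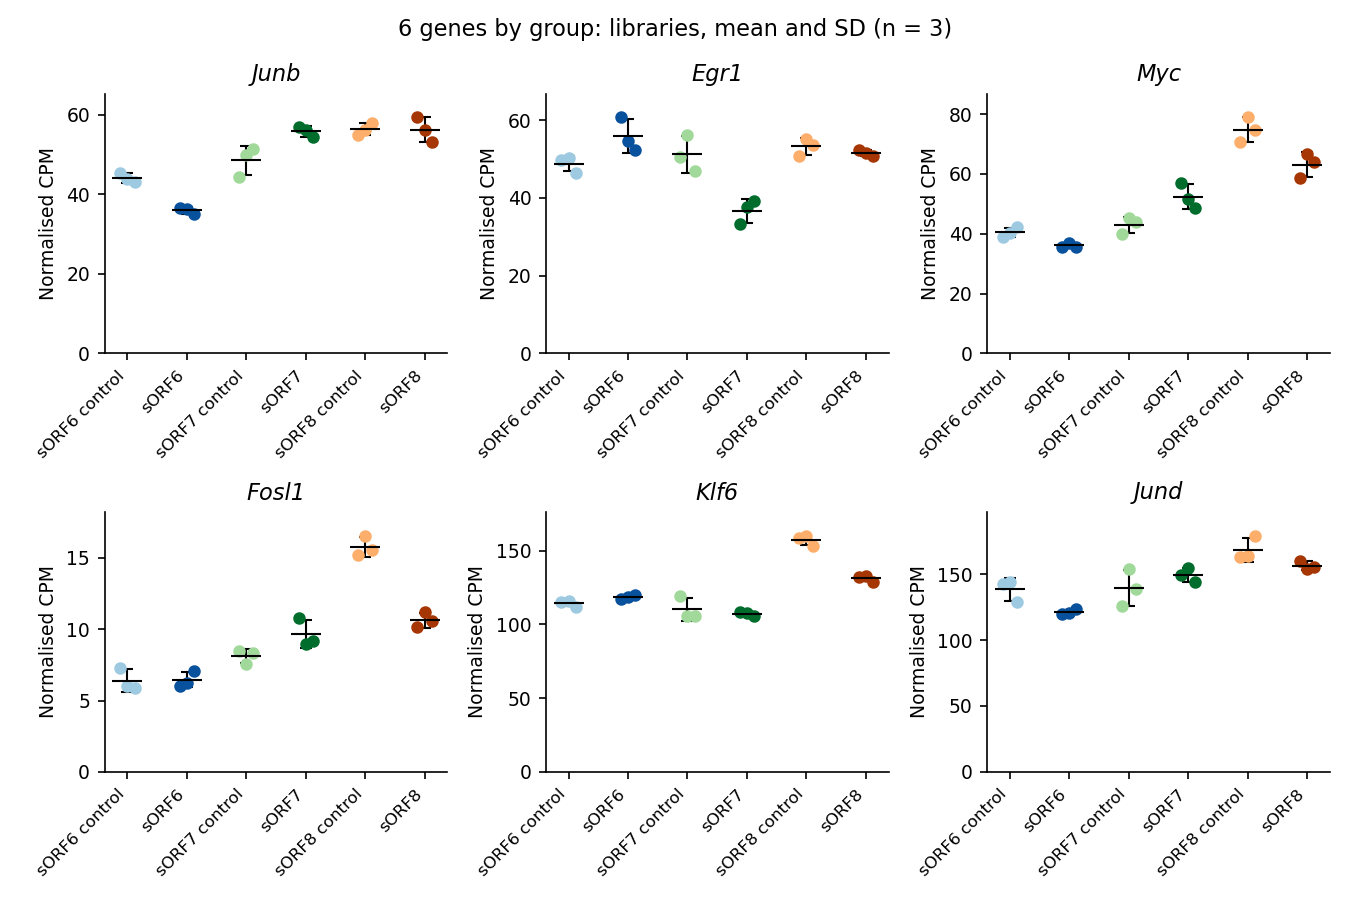
Normalised CPM of Junb, Egr1, Myc, Fosl1, Klf6 and Jund by group; points are libraries, the long bar is the mean and the error bars are SD (n = 3), on axes from 0. The sORF6 group is the lowest for Junb, the sORF7 group is the lowest for Egr1, and the sORF8 controls are the highest for Fosl1, Myc and Klf6.

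Markers of cell types moved with some of these results. Of all genes, 2.88% were called lower and 0.968% higher with sORF6, 3.66% and 4.12% with sORF7, and 1.72% and 2.03% with sORF8. With sORF6, 2 of 8 leukocyte markers were lower (Adgre1, log2 fold change -0.61 ± 0.10 SE, adjusted p = 0.000511, and Itgam, -0.83 ± 0.17, adjusted p = 0.00712). The 8 leukocyte markers summed to 97.5 to 105 normalised CPM with sORF6 and 122 to 140 in the controls. Other lists had calls in both directions with sORF6: Myh7 higher and Myh6 lower of 10 cardiomyocyte markers, and Col3a1 higher and Dcn lower of 8 fibroblast markers, while Acta2 was the 1 of 7 smooth muscle and pericyte markers called, lower. With sORF7, 2 of 10 cardiomyocyte markers were lower, Myh7 and Myl2 (log2 fold changes -0.46 ± 0.06 and -0.36 ± 0.06 SE, adjusted p = 8.92e-05 and 0.000822). The summed cardiomyocyte level was 51775 to 53435 normalised CPM, against 57581 to 61187 in the controls. In the same comparison 3 of 8 cardiac fibroblast markers were lower, Col3a1 (-0.21 ± 0.04 SE, adjusted p = 0.00578), Postn (-0.16 ± 0.04, adjusted p = 0.0128) and Pdgfra (-0.30 ± 0.07, adjusted p = 0.0189), and so was 1 of 8 leukocyte markers, Csf1r (-0.49 ± 0.14, adjusted p = 0.0353). The fibroblast markers summed to 7485 to 7834 normalised CPM with sORF7 and 7867 to 8770 in the controls. With sORF8, 5 of 10 cardiomyocyte markers were higher and none lower, with Myh6, the alpha myosin heavy chain gene, at 0.80 ± 0.07 SE (adjusted p = 2.19e-06). The sum was 45988 to 47914 normalised CPM with sORF8 and 38347 to 38728 in its controls. Of the smooth muscle and pericyte markers, 1 of 7, Acta2, was higher with sORF8 (0.22 ± 0.04 SE, adjusted p = 0.00552). No marker of the 5 lists was at 0 in every library. The part of these marker changes in the results for Junb, Egr1, Myc, Fosl1 and Klf6 was not tested.

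Whether the response to 1 construct differed from that to another was tested as a difference of differences, each against its own controls. Between sORF6 and sORF7, 4 of 10 genes differed, where 11.2% of all genes did. Egr1 responded more positively to sORF6 (0.68 ± 0.10 on the log2 scale, adjusted p = 0.000147), and Junb (-0.49 ± 0.08, adjusted p = 0.000249), Myc (-0.45 ± 0.09, adjusted p = 0.00343) and Jund (-0.29 ± 0.08, adjusted p = 0.0316) more negatively. The Jund difference was lost without any 1 of replicates 1, 2 and 3 of sORF6, replicates 1 and 2 of its controls, replicates 1 and 2 of sORF7 or replicates 1 and 3 of its controls, and with both control libraries that stood apart left out (highest adjusted p 0.106).

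Between sORF6 and sORF8, 3 of 10 genes differed, against 3.69% of all genes. Klf6 differed by 0.32 ± 0.06 (adjusted p = 0.00265), Fosl1 by 0.58 ± 0.15 (adjusted p = 0.0359) and Junb by -0.29 ± 0.08 (adjusted p = 0.0421), each as sORF6 minus sORF8 on the log2 scale. Of these, Klf6 passed in all 20 other settings. The Fosl1 call was lost without replicate 2 or 3 of sORF6, of the sORF6 controls or of the sORF8 controls, and without replicate 1 or 3 of sORF8 (highest adjusted p 0.109). It was also lost without the low-count filter (0.0571), with DESeq2 (0.0780), with a replicate block (0.0729) and with both control libraries that stood apart left out (0.0707). The Junb call was lost without any 1 of the 12 libraries compared, other than sORF6 control replicate 3 and sORF8 replicate 3 (highest adjusted p 0.125). It was also lost without the low-count filter (0.0555), with limma on log2(FPKM + 1) (0.0574) and log2(FPKM + 0.1) (0.0614), with DESeq2 (0.0635) and with a replicate block (0.106), in all 15 of 20 other settings.

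Between sORF7 and sORF8, 4 of 10 genes differed, against 7.72% of all genes. As sORF7 minus sORF8, Fosl1 differed by 0.81 ± 0.15 (adjusted p = 0.00161), Myc by 0.53 ± 0.09 (adjusted p = 0.00112), Egr1 by -0.44 ± 0.10 (adjusted p = 0.0115) and Klf6 by 0.22 ± 0.06 (adjusted p = 0.0251) on the log2 scale. Fosl1, Myc and Egr1 passed in all 20 other settings. The Klf6 call was lost without replicate 1 or 2 of sORF7, replicate 2 or 3 of its controls, replicate 3 of sORF8 or replicate 1 or 2 of its controls (highest adjusted p 0.0673).

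The genes upstream of the 10, from receptor to transcription factor, were called at 1 of 18 with sORF6, 3 with sORF7 and 0 with sORF8, where 3.85%, 7.77% and 3.75% of all genes were. Of these kinases, receptors and SRF or ETS factors, 1 was lower with sORF6, 2 were higher and 1 lower with sORF7, and none passed with sORF8 in edgeR, where 1 had an unadjusted p under 0.05 and DESeq2 called 0. Adra1d, an alpha-1 adrenergic receptor gene, was 1.54-fold lower with sORF6 (log2 fold change -0.62 ± 0.16 SE, adjusted p = 0.0301) and 1.51-fold higher with sORF7 (0.59 ± 0.14, adjusted p = 0.0116). Its response differed between those constructs by -1.21 ± 0.21 (adjusted p = 0.000605), at mean levels of 2.83 to 9.22 normalised CPM. Map2k1, which encodes the kinase MEK1, was higher with sORF7 (0.22 ± 0.05 SE, adjusted p = 0.00578), and Elk4, an ETS partner of SRF, was lower (-0.28 ± 0.07, adjusted p = 0.0113). Among 11 MAPK feedback genes the only one called was Spry1, a Sprouty inhibitor of receptor to ERK signalling. It was higher with sORF6 (0.23 ± 0.05 SE, adjusted p = 0.0204) and lower with sORF7 (-0.21 ± 0.06, adjusted p = 0.0227), and those responses differed by 0.44 ± 0.08 (adjusted p = 0.000741). With sORF8 edgeR called 0 of these 11, 2 had an unadjusted p under 0.05 and DESeq2 called 0.

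Other gene lists are read against the same shares of all genes (3.85% with sORF6, 7.77% with sORF7 and 3.75% with sORF8). Of 19 other immediate early genes tested, edgeR called 0 with sORF6, 2 with sORF7 (Ctgf, log2 fold change -0.13 ± 0.03 SE, adjusted p = 0.00615, and Klf10, -0.24 ± 0.07, adjusted p = 0.0402) and 1 with sORF8 (Klf4, -0.15 ± 0.04, adjusted p = 0.0492). With sORF6, 5 of the 19 had an unadjusted p under 0.05 in edgeR and DESeq2 called 0. Among 12 tested dimer partners of AP-1, 1 was called with sORF6, 2 with sORF7 and 1 with sORF8. Mafk was higher with sORF6 (0.18 ± 0.04 SE, adjusted p = 0.0171), Mafg higher and Maf lower with sORF7 (0.19 ± 0.04, adjusted p = 0.00525, and -0.53 ± 0.11, adjusted p = 0.00487), and Mafg lower with sORF8 (-0.23 ± 0.04, adjusted p = 0.00128). The Mafg responses to sORF7 and sORF8 differed by 0.42 ± 0.05 (adjusted p = 7.35e-05). In the MYC network of 12 tested genes only Mxd1, a MAX partner that opposes MYC, was called, higher with sORF7 (0.36 ± 0.10 SE, adjusted p = 0.0317). Usp28, a deubiquitinase that stabilises MYC, was the only one of 7 turnover genes called, higher with sORF8 (0.17 ± 0.04 SE, adjusted p = 0.0228). In edgeR 1 MYC network gene with sORF6 and 3 with sORF8, and 0 turnover genes with sORF6 and 1 with sORF7, had an unadjusted p under 0.05, and DESeq2 called 0 of them. The EGR co-repressor genes Nab1 and Nab2 were called with none of the constructs by edgeR or DESeq2; 1 of the 2 had an unadjusted p under 0.05 in edgeR with sORF6, 1 with sORF7 and 0 with sORF8. In each of these cases with 0 calls, limma on log2(FPKM + 1) also called 0.

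Of 14 genes often used as AP-1 targets, 6 were called with sORF6, 3 with sORF7 and 2 with sORF8. With sORF6, 5 of 14 were lower and 1 higher (2.88% and 0.968% of all genes), with a median log2 fold change of -0.20. Mmp9, a matrix metalloproteinase gene, was 2.73-fold lower (log2 fold change -1.45 ± 0.17 SE, adjusted p = 1.21e-05), from 10.3 to 3.78 normalised CPM. Hbegf, an EGF receptor ligand gene, was 1.18-fold higher (0.24 ± 0.04 SE, adjusted p = 0.00155). Cd44, which encodes a hyaluronan receptor, was lower (-0.25 ± 0.05 SE, adjusted p = 0.00301), at a mean of 54.2 against 64.4 normalised CPM. Also lower, and named after their values were seen, were Dcn (114 against 129.9), which is on the fibroblast marker list too, Mmp3 (0.775 against 1.82) and Mmp13 (0.136 against 1.23), the last on very few counts. Mmp9 is also made by leukocytes, whose markers were lower in the same libraries as given above; their part in its change was not tested.

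With sORF7, 2 of 14 AP-1 targets were higher and 1 lower (4.12% and 3.66% of all genes), with a median log2 fold change of 0.22. Mmp3 was 1.82-fold higher (0.86 ± 0.21 SE, adjusted p = 0.0147) and Vim, the intermediate filament gene vimentin, 1.11-fold lower (-0.15 ± 0.04, adjusted p = 0.0113). Mmp3 had a low level in the sORF6 libraries and their controls, as given above. Plaur, the urokinase receptor gene, was higher (0.40 ± 0.11 SE, adjusted p = 0.0274), at a mean of 13.9 against 10.5 normalised CPM. With sORF8, Mmp9 was higher (0.61 ± 0.15 SE, adjusted p = 0.0288) and Plaur lower (-0.40 ± 0.11, adjusted p = 0.0403), 2 of 14 with a median of -0.05. Mmp9 differed between the sORF6 and sORF7 responses by -1.77 ± 0.23 (adjusted p = 2.25e-05).

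Targets of MYC in ribosome biogenesis, polyamine synthesis and growth were called only as lower against the controls. Of 16 tested, 2 were lower with sORF6 (2.88% of all genes), none passed with sORF7 and 3 were lower with sORF8 (1.72% of all genes). With sORF7, 6 of the 16 had an unadjusted p under 0.05 in edgeR, DESeq2 called 1 and limma on log2(FPKM + 1) called 0. Odc1, the polyamine synthesis enzyme ornithine decarboxylase, was lower with sORF6 (log2 fold change -0.24 ± 0.04 SE, adjusted p = 0.000345) and with sORF8 (-0.19 ± 0.04, adjusted p = 0.00454). Fbl, a nucleolar methyltransferase gene, was lower with sORF6 (-0.26 ± 0.06 SE, adjusted p = 0.0198). Npm1 and Ncl, nucleolar protein genes, were lower with sORF8 (-0.20 ± 0.04 and -0.16 ± 0.04 SE, adjusted p = 0.00751 and 0.0234). Median log2 fold changes of the 16 genes were -0.07, 0.06 and -0.10 for sORF6, sORF7 and sORF8, beside Myc at -0.16, 0.28 and -0.25. Myc itself passed with sORF7 and sORF8 and not with sORF6, and whether these genes follow it was not tested. The response of Odc1 to sORF7 exceeded that to sORF8 by 0.30 ± 0.05 (adjusted p = 0.00101).

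**Figure D4:**
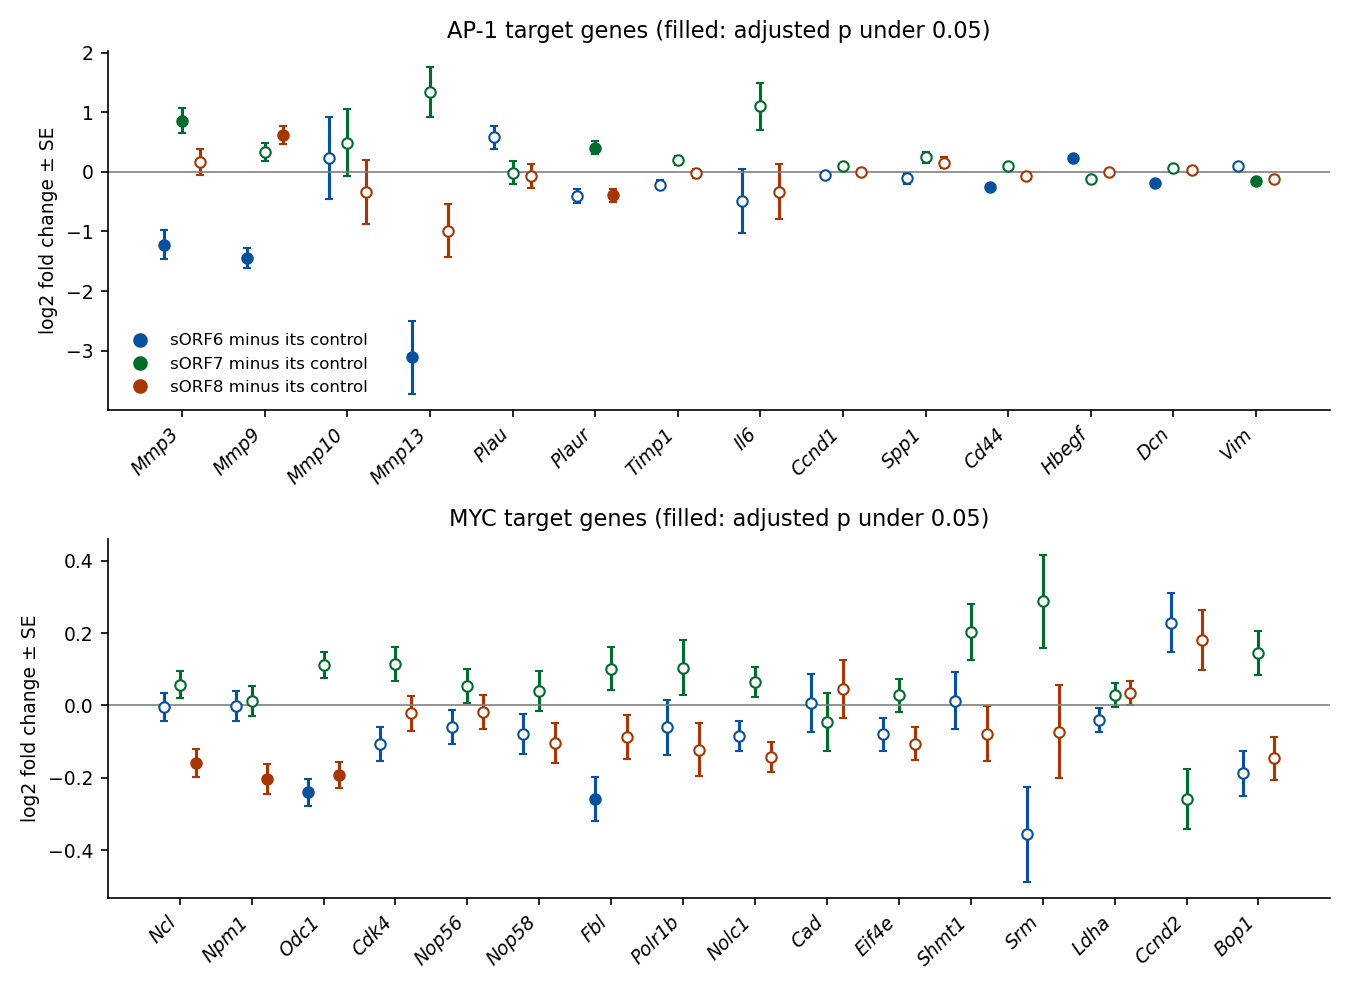
Log2 fold change ± SE of 14 AP-1 target genes (top) and 16 MYC target genes (bottom) for each sORF minus its control virus; filled points have an adjusted p under 0.05 (edgeR). With sORF6, 5 AP-1 targets are lower and 1 is higher, and with sORF8, 3 MYC targets are lower; the lowest point, Mmp13 with sORF6, rests on a mean of 0.136 normalised CPM in that group.

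The control groups of the 3 experiments also differed in these genes. In the sORF8 controls, 7 of 10 were higher than the mean of the sORF6 and sORF7 controls and none lower, where 42.8% of all genes were called, 21.5% higher and 21.3% lower. Fosl1 stood at 15.2 to 16.6 normalised CPM in the sORF8 controls and at 5.87 to 8.47 in the other 6 control libraries, 2.18-fold higher (log2 difference 1.13 ± 0.09 SE, adjusted p = 5.07e-09). Myc stood at 70.8 to 79.0 against 39.0 to 45.3 (0.84 ± 0.05, adjusted p = 5.33e-10), and Klf6 at 153 to 160.1 against 106 to 119 (0.49 ± 0.04, adjusted p = 2.4e-09). Junb (0.28 ± 0.05 SE, adjusted p = 6.46e-05), Jund (0.28 ± 0.05, adjusted p = 0.000186) and Jun (0.20 ± 0.04, adjusted p = 0.000447) were higher too. For these 6 of the 10 genes the sORF8 controls did not overlap the other control libraries, as was the case for 36.7% of all genes. Fosb was called at 0.50 ± 0.19 SE (adjusted p = 0.0425), a call lost without sORF6 control replicate 1 or 3, sORF7 control replicate 3 or sORF8 control replicate 1 or 2 (highest adjusted p 0.193), and without the low-count filter (0.0521). Fos (0.11 ± 0.09 SE, adjusted p = 0.304), Fosl2 (0.13 ± 0.15, adjusted p = 0.537) and Egr1 (0.09 ± 0.06, adjusted p = 0.258) did not pass. A joint test of the 3 control groups called 6 of the 10 (38.4% of all genes): Fosl1, Myc, Klf6, Junb, Jund and Jun.

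The sORF8 comparison and this contrast use the same 3 sORF8 control libraries, so their values are given side by side only. Fosl1 was 1.13 higher in those controls than in the others and 0.57 lower with sORF8 than in them, on the log2 scale. For Myc the corresponding values were 0.84 higher and 0.25 lower, and for Klf6 0.49 higher and 0.26 lower. The sORF8 libraries themselves, at 10.2 to 11.2 normalised CPM for Fosl1, 58.5 to 66.6 for Myc and 129 to 133 for Klf6, lay above all 6 libraries of the other control groups for each of these genes. The control virus and whatever else set the sORF8 experiment apart cannot be told apart from these labels.

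The pathway lists are given for the same control contrast, in which 21.5% of all genes were called higher and 21.3% lower. MAPK feedback genes were higher in 8 of 11 cases (median 0.24, with all genes at -0.0043), among them Dusp6, an ERK phosphatase gene (0.54 ± 0.04 SE, adjusted p = 1.43e-08), and Spry2 (0.37 ± 0.03, adjusted p = 2e-08). Other immediate early genes were higher in 9 and lower in 1 of 19 cases (median 0.18), and MYC targets were higher in 12 and lower in 2 of 16 (median 0.28). Of 14 AP-1 targets, 4 were higher and 3 lower (median 0.15), and of 18 upstream kinases, receptors and factors 8 were higher and 3 lower (median 0.09). AP-1 dimer partners were higher in 4 and lower in 1 of 12 cases (median 0.04), MYC network genes higher in 3 and lower in 2 of 12 (median -0.03) and turnover genes higher in 3 and lower in 2 of 7 (median 0.09). Both EGR co-repressor genes were higher, Nab1 by 0.27 ± 0.05 SE (adjusted p = 6.03e-05) and Nab2 by 0.32 ± 0.04 (adjusted p = 7.34e-06). All 10 cardiomyocyte markers were lower (median -0.63), and their summed level was 38347 to 38728 normalised CPM in the sORF8 controls against 57581 to 64861 in the other controls. Of fibroblast markers 3 of 8 were lower, of smooth muscle and pericyte markers 1 of 7 was higher and 4 lower, of endothelial markers 1 of 6 was higher, and of 8 leukocyte markers edgeR and DESeq2 called 0, with 1 at an unadjusted p under 0.05 in edgeR and 1 called by limma on log2(FPKM + 1). The part of the marker difference in the results for these genes was not tested. Prdx2, which overlaps Junb, was lower in the sORF8 controls (-0.30 ± 0.05 SE, adjusted p = 0.000157) where Junb was higher.

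Across the 18 libraries some of the 10 genes followed each other closely, described here as Pearson correlations of log2 normalised CPM. The points share groups, control libraries and depth, so no test is attached. Fosl1 and Myc had the highest correlation at 0.94, which fell to 0.17 once the mean of each group was subtracted. Junb and Jund reached 0.89, and 0.63 within groups. Fos and Junb were alike both across groups and within them (0.65 and 0.78), and so were Fos and Jun (0.54 and 0.65). Egr1 had its lowest correlation with Junb (-0.39, and 0.08 within groups).

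**Figure D5:**
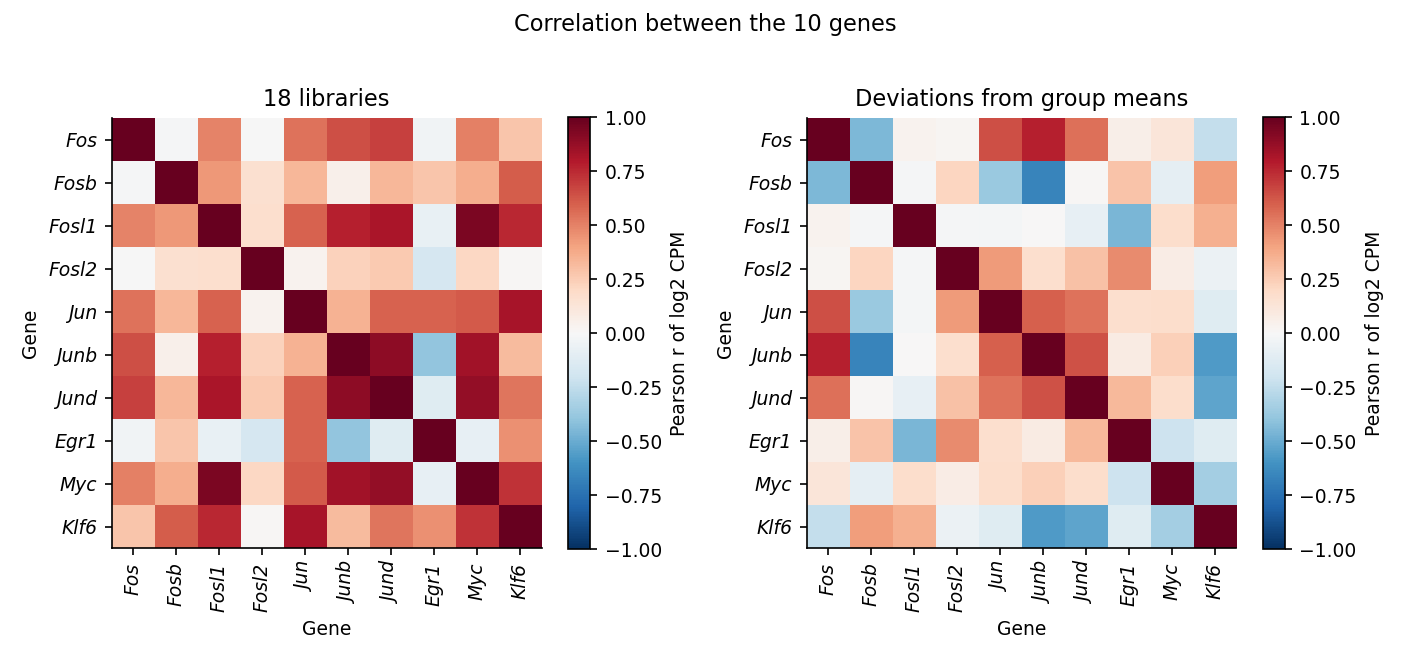
Pearson correlation of log2 normalised CPM between each pair of the 10 genes over 18 libraries (left) and after subtracting group means (right); red is positive and blue negative. Fosl1 and Myc are close on the left (0.94) and not on the right (0.17), while Fos and Junb are alike on both sides (0.65 and 0.78).

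Among 11689 named genes, the closest patterns over the same 18 libraries were as follows. For Myc they were Tnfrsf1a (r = 0.99), PVR (0.98) and Rgs2 (0.98), and Rgs2 ran from 36.8 to 92.0 normalised CPM. For Klf6 they were Rybp (0.97), Mcl1 (0.96) and Rasa1 (0.96). For Egr1 they were Myadm (0.95), Igf1 (0.89) and Celf1 (0.88), and for Jun they were Map7d1 (0.95), Bcl2l2 (0.92) and Loxl1 (0.91). No gene followed Fos as closely: its best matches were Tor1a (0.81), Psmd4 (0.80) and Ddx56 (0.80).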

How the data were processed

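RNA-seq libraries from 18 samples (6 groups of 3) were grouped by their titles. The authors deposited estimated counts and FPKM per gene and library, with log2 fold changes, p-values and q-values. The submitters' processing notes list HISAT2 2.0.4, RSEM 1.2.12, DESeq2 1.4.5 and build Rnor_6.0 without roles, and the p-value and q-value columns are headed degseq, per the file headers. The effective length of a gene was worked out here as the median over libraries of the length implied by its count, FPKM and column total. FPKM rebuilt from that length differed from the deposited FPKM by a median of 0.0648%. This gap shows only that 1 length per gene held across libraries. The sources used here do not give the strand setting of the counting. The authors' q-values and log2 fold changes are used only where their table is named.

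Estimated counts were rounded and tested with edgeR 4.0.16 (R 4.3.3, limma 3.58.1). filterByExpr by group kept 14870 of 19880 genes. TMM factors, 1 mean per group and a quasi-likelihood fit over all 18 libraries left 12 residual degrees of freedom. P-values are two-sided and Benjamini-Hochberg adjusted over all genes tested, with a threshold of 0.05. The SE of a log2 difference is its size divided by the square root of the F statistic. No set test was run, and simulated data with known changes were used to test the fits (edgeR, with and without the block or the length trend, DESeq2 and limma). Depth was 15697177 to 17658137 counts per library, and intervals between replicates cover these libraries only.

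All 10 members are described. From each other gene list up to 3 called genes with the smallest p per comparison are named, and genes outside that rule are named as such. The genes of closest pattern were the 3 with the highest correlation for Fos, Jun, Egr1, Myc and Klf6. Genes of the lists shown for the control contrast and for Adra1d, Mafg, Odc1 and Mmp9 between experiments were chosen after their values were seen. Of the AP-1 target list, 1 further gene is not reported here. The members and lists were chosen with earlier results of these data known. Alternatives were RLE scaling, no filter, removal of a trend with effective length, limma on log2(FPKM + 1) and log2(FPKM + 0.1), DESeq2 1.42.0, a replicate block, only the 6 libraries of an experiment, and leaving out each library in turn.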

Additional observations from a re-analysis of the deposited data

Results flagged for a closer look

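Responses of 6 of the 10 genes differed between constructs by a test of the difference itself (edgeR contrast of differences, adjusted p under 0.05), 11 differences in all, each on the log2 scale. As sORF6 minus sORF7 these were Egr1 at 0.68, Junb at -0.49, Myc at -0.45 and Jund at -0.29 (11.2% of all genes differed). As sORF6 minus sORF8 they were Fosl1 at 0.58, Klf6 at 0.32 and Junb at -0.29 (3.69% of all genes). As sORF7 minus sORF8 they were Fosl1 at 0.81, Myc at 0.53, Egr1 at -0.44 and Klf6 at 0.22 (7.72% of all genes). The Jund call was lost in 10 of 20 other settings, and the Klf6 call between sORF7 and sORF8 in 7. Between sORF6 and sORF8 the Fosl1 call was lost in 12 of 20 and the Junb call in 15. The sign of the response itself was opposite between sORF6 and sORF7 for Junb, which passed the test in both. It was opposite between sORF7 and sORF8 for Myc, which also passed in both. The Junb call with sORF7 was lost in 6 of 15 alternatives. The Myc call was lost in 2 of 15 with sORF7 and in 7 of 14 with sORF8. The sORF8 differences use the sORF8 controls, which were higher than the other controls for Fosl1, Myc, Klf6 and Junb among these genes, and for Jund and Jun. Groups of 3 libraries were too small to look for single outlying libraries by gap.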

How the results depend on the processing

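Of 440 alternative values for the 25 called results of single genes, 375 stayed past the threshold with the same direction and 65 did not pass. Junb with sORF6, Egr1 with sORF7, and Fosl1 and Klf6 with sORF8 passed in every alternative that gave an adjusted p; DESeq2 gave none for Fosb, Fosl1 and Fosl2 with sORF8. Members called with sORF6 (1) were 2 under DESeq2, and 1 to 2 when single libraries were left out. With sORF7 (3) they were 1 to 3, with 1 without sORF7 replicate 1 or its control replicate 1. Between sORF6 and sORF8 (3) they were 1 without the low-count filter, 1 under DESeq2 and 1 to 2 with single libraries left out. Genes called fell from 572 (sORF6) and 1156 (sORF7) to 335 and 689 with only the 6 libraries of the experiment, and were 368 to 527 and 681 to 954 with single libraries left out. For sORF8 (558) they were 865 with only 6 libraries, 931 with the length trend removed, 366 with limma on log2(FPKM + 0.1) and 264 to 382 with single libraries left out; the cause was not tested.

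Direction reversed only for results that did not pass. Without the 2 control libraries that stand apart, an alternative chosen after seeing the data, log2 values for Fosb, Fosl1 and Fosl2 with sORF6 were 0.146, -0.031 and -0.085, and for Fosb and Klf6 with sORF7 0.091 and 0.028. With single libraries left out, ranges that crossed 0 with sORF6 were -0.170 to 0.146 (Fosb), -0.057 to 0.116 (Fosl1) and -0.084 to 0.129 (Fosl2). With sORF7 they were -0.268 to 0.0911 (Fosb) and -0.070 to 0.028 (Klf6), with sORF8 -0.123 to 0.143 (Fosl2) and -0.043 to 0.035 (Junb), and in the control contrast -0.043 to 0.223 (Fosl2). Junb with sORF8 was 0.0030 with the length trend removed.

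Whether replicate numbers pair the libraries could not be decided from 3 libraries per group. Deviations of libraries sharing a number correlated at -0.02 to 0.18. The best-matching control library had the same number for sORF6 replicates 1 and 2, sORF7 replicates 1 and 2, and sORF8 replicates 2 and 3. It had another number for sORF6 replicate 3, sORF7 replicate 3 and sORF8 replicate 1. With a replicate block, members called were 1, 2 and 2 for sORF6, sORF7 and sORF8 (Junb with sORF7 and Myc with sORF8 were not called) and 1 between sORF6 and sORF8. Depth limits Fosb and Fosl2 most, at 38 to 128 counts per library.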
